A study of Mus musculus with 4 samples.

Results

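A group of 10 genes of calcium-dependent signalling was followed through maps of N6-methyladenosine (m6A), a methyl mark on adenosines of RNA, in hearts of newborn mice. They were the CaMKII genes Camk2a, Camk2b, Camk2d and Camk2g, the calcineurin genes Ppp3ca and Ppp3cb, the calcineurin regulator gene Rcan1, and the NFAT genes Nfatc1, Nfatc3 and Nfatc4. All peaks that the deposited lists name for these symbols were taken, which gave 35 of 41945 peaks and 10 of 12182 genes with a peak. The hearts came from 4-day-old Wtapflox/flox mice (control) and Wtap-CKO mice (knockout), which carry a knockout of Wtap, a gene for a regulatory subunit of the m6A methyltransferase. RNA of 7 control and of 8 knockout mice was pooled, and each genotype gave 1 library precipitated with an anti-m6A antibody (IP) and 1 input library. The sources used here do not give the promoter or cell type that drives the knockout. A peak is a stretch of exonic sequence in which the IP exceeded its own input by the authors' caller at a q of 0.05, the false discovery rate.

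With 1 pooled pair of libraries per genotype, no test between genotypes was possible and no difference below has a replicate check. The depth of the libraries is unknown, because the lists hold no read counts. A peak found in 1 list therefore cannot be separated into a change in methylation, in the level of the transcript or in depth. In whole hearts, fewer cells of a type and less RNA per cell cannot be told apart. Coordinates follow mouse build GRCm39. The lists place peaks in exons of the named gene, and their place relative to the coding sequence was not analysed here. Wtap itself carried 3 control and 4 knockout peaks, which do not check the deletion. All 5 cardiomyocyte markers examined (Myh6, Tnnt2, Actc1, Ryr2 and Pln) carried peaks in both lists.

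Calcium entering a heart muscle cell binds calmodulin, which switches on a kinase and a phosphatase. The kinase, CaMKII, is assembled from the subunits encoded by the Camk2 genes, with the delta and gamma forms prominent in heart and the alpha and beta forms in brain. The phosphatase, calcineurin, has a catalytic subunit encoded by Ppp3ca or Ppp3cb, and removes phosphates from NFAT proteins, which then enter the nucleus. Both arms are known for driving hypertrophic growth of the heart, and Rcan1 protein restrains calcineurin.

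All 10 genes had at least 1 control peak, and 9 had at least 1 knockout peak. Over all genes with a peak, 77.6% had peaks in both genotypes, 10.5% in the control alone and 11.9% in the knockout alone. The 10 genes held 17 control peaks, of which 14 had a knockout counterpart, a peak on the same strand with at least 1 exonic base in common. Such peaks are called shared. The 3 control peaks without a knockout counterpart made up 17.6% (exact 95% interval 3.80 to 43.4), next to 23.9% of all control peaks. Of 18 knockout peaks, 13 were shared and 5 were not (27.8%, 9.69 to 53.5), next to 24.5% of all knockout peaks. These intervals cover counting error only. Both shares lay near those of the whole lists. The control-only peaks belonged to Camk2a and Camk2b, and the knockout-only peaks to Camk2b, Ppp3cb, Nfatc1 and Nfatc3.

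The same held for strong peaks, those with a q at or under 1e-10 in their own list. There were 8 strong control peaks in 7 of the genes, and 1 of them, in Camk2a, lacked a knockout counterpart (12.5%, 0.316 to 52.7; 8.72% of all strong control peaks). There were 9 strong knockout peaks in 7 of the genes, and 0 lacked a control counterpart (upper exact limit 33.6%; 4.04% of all strong knockout peaks). No peak of another gene, on either strand, lay within the span of any of the 35 peaks. The sources used here do not say how reads were assigned between related genes.

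**Figure D1:**
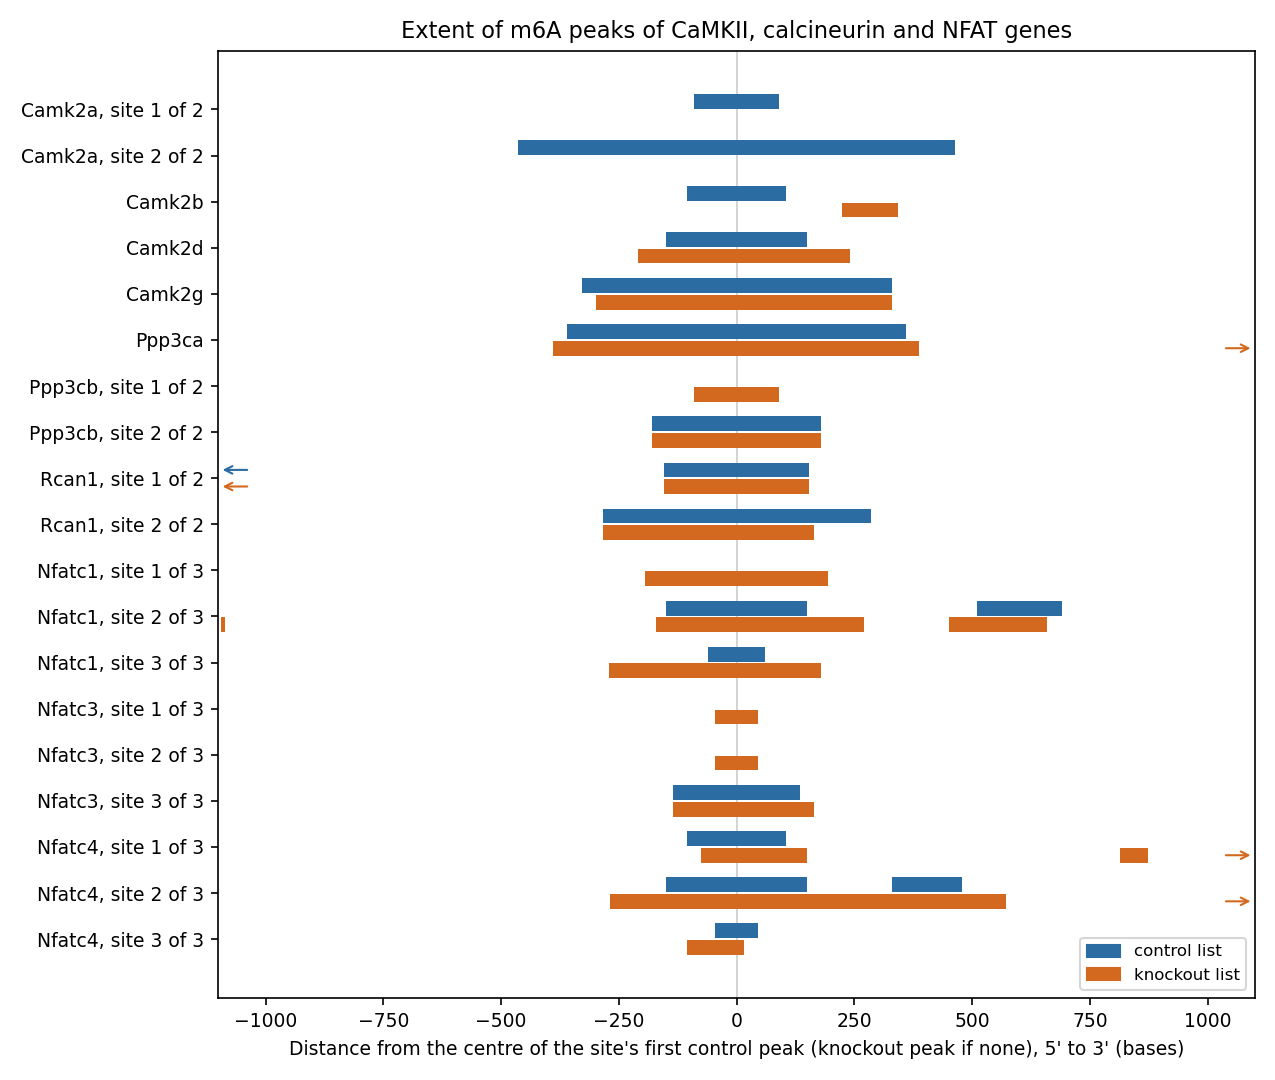
Extent of every peak of the 10 genes, drawn 5′ to 3′ along the gene in bases from the centre of the first control peak of a site (or of the knockout peak where there is none); peaks within 200 bases of each other form 1 site and arrows mark further exonic blocks outside the frame. Both Camk2a sites hold a control peak only, the Camk2b peaks lie side by side without overlap, and the knockout peaks of Nfatc1 and Nfatc4 are wider than the control peaks they overlap.

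Camk2a, the gene for the alpha subunit that is best known from neurons, was the only one of the 10 without a knockout peak. In the control list it carried a peak of 181 bases on the plus strand of chromosome 18 at 61096636 to 61096816, with a fold enrichment of IP over input of 4.81 and a log10 q of -7.83. A second control peak followed 21.1 kb further 3′, at 61117897 to 61118826. It was 930 bases wide, the widest of the 35, with a fold of 7.56 and a log10 q of -43.2. By its p this peak was stronger than 82.9% of the control list, while its fold stood at the 52.2nd percentile. None of the 3 neural markers examined, Tubb3, Snap25 and Rbfox3, had a control peak. In the knockout list Tubb3 had 2 peaks, neither of them strong, and the others had none. The lists hold no transcript levels, so a missing peak does not show that a transcript was absent.

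Camk2b, the beta subunit gene, had a weak peak in each list on the minus strand of chromosome 11. In the control list it covered 5920392 to 5920601, with a fold of 4.17 and a log10 q of -2.31. In the knockout list it covered 5920153 to 5920272, with a fold of 7.50 and a log10 q of -2.24. The peaks did not overlap, but the gap between them was 119 bases, close to the stated RNA fragment length of about 100 nt. Both stood near the bottom of their lists, stronger than 7.49% of control peaks and 7.22% of knockout peaks. The knockout peak had exactly the fold and p of 70 other knockout peaks, and the control peak those of 9 other control peaks. When peaks within 200 bases were also counted as shared, a choice made after these peaks were seen, the control peaks without counterpart went from 3 to 2 and the knockout peaks from 5 to 4.

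Camk2d, which encodes the delta subunit, the main CaMKII form of heart muscle, had a single shared peak on the plus strand of chromosome 3. It ran from 126390668 to 126390968 in the control list (301 bases) and from 126390608 to 126391058 in the knockout list (451 bases), so that all control bases lay inside the knockout peak. The fold was 2.63 in the control list, at the 10.6th percentile there, and 11.3 in the knockout list, at the 68.2nd percentile. With a log10 q of -5.13 (control) and -8.07 (knockout), it was strong in neither list.

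Camk2g, the gamma subunit gene, carried the strongest control peak of the 10 genes. It lay on the minus strand of chromosome 14 at 20786109 to 20786767, with a fold of 25.9 (95.6th percentile) and a log10 p of -362. Its log10 q is listed as minus infinity. The knockout peak covered 20786109 to 20786737, with a fold of 12.6 (73.1st percentile) and a log10 p of -174, and was also the strongest of the 10 genes in its list. By p the peak was stronger than 99.2% of control and 97.6% of knockout peaks. Without Camk2a, the other CaMKII genes together had 1170 exonic bases under 3 control peaks and 1200 under 3 knockout peaks, and 930 of these bases were common to both.

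**Figure D2:**
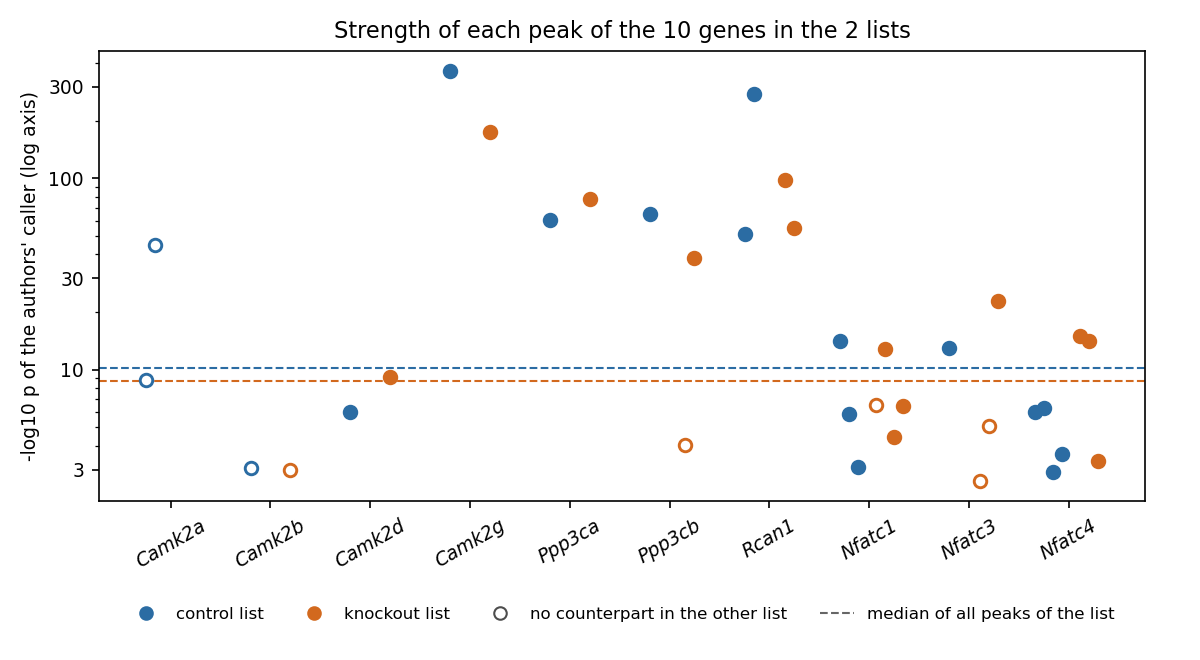
Strength of every peak of the 10 genes as -log10 of the p of the authors' caller (log axis), with control peaks in blue, knockout peaks in orange, open points for peaks without a counterpart and dashed lines at the median of each whole list (log10 p -10.2 for the control and -8.71 for the knockout). The stronger peaks of Camk2g, Ppp3ca, Ppp3cb and Rcan1 lie above both medians in each list, whereas 5 of the 8 open points have a log10 p between -5.10 and -2.62 and the strongest open point is the second Camk2a peak (-44.8).

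Among the catalytic subunit genes of calcineurin, Ppp3ca and Ppp3cb had 2 control peaks, both shared, next to 76.1% of all control peaks. Ppp3ca, which encodes the alpha form, had a peak on the plus strand of chromosome 3 at 136375915 to 136376634 in the control list, 720 bases wide, with a fold of 12.1 and a log10 q of -59. The overlapping knockout peak started at 136375885 and had 780 exonic bases, with a fold of 28 and a log10 q of -75.6. Of these, 778 lay in the first block, and the remaining 2 bases at 136486223 to 136486224 belonged to a second exonic block. In rank by p, the peak stood above 87.8% of control and 92.7% of knockout peaks.

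Ppp3cb, the beta form, shared a peak with identical edges in both lists on the minus strand of chromosome 14, at 20551319 to 20551679. The control list gave it a fold of 5.40 and a log10 q of -63, the knockout list 6.73 and -36.5. The knockout list held a second, weak peak at 20596461 to 20596641 (181 bases, fold 3.28, log10 q -3.20), 44.8 kb further 5′. The shared Ppp3cb peak and the Camk2g peak lay 234 kb apart on the same strand of chromosome 14.

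Rcan1, the calcineurin regulator gene, had 2 shared strong peaks on the minus strand of chromosome 16, and their order by p differed between the lists. The 5′ peak had the same 2 exonic blocks in both lists, 53 bases at 92267703 to 92267755 and 307 bases at 92262728 to 92263034. The 3′ peak ran from 92189949 to 92190518 in the control list and from 92190069 to 92190518 in the knockout list, which left 450 of its 570 control bases. In the control list the 3′ peak had the smaller p (log10 p -275, against -51.4 at the 5′ peak). In the knockout list the 5′ peak had it (-97.8, against -55.1 at the 3′ peak). The larger fold lay at the 5′ peak in both lists, with 22.5 against 7.97 in the control and 18.3 against 2.62 in the knockout. The 3′ peak thus stood at the 54.3rd percentile of fold among control peaks and at the 10.8th among knockout peaks. Of 3254 genes with at least 2 pairs of peaks that each overlapped only the other, 24.5% had their smallest p at another pair in the knockout list, so such a switch was common. Nfatc1 and Nfatc4 had such pairs too. Among these pairs their smallest p stayed at the same pair, but their largest fold moved to another, as in 36% of 3231 genes. A joined peak of Nfatc4, described below, is not such a pair and was left out. Over all its peaks, the smallest control p of Nfatc4 lay at the joined site (log10 p -6.28, against -6.01 at the first peak). In the knockout list it lay at the first peak (-14.9, against -14.1 at the joined peak).

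**Figure D3:**
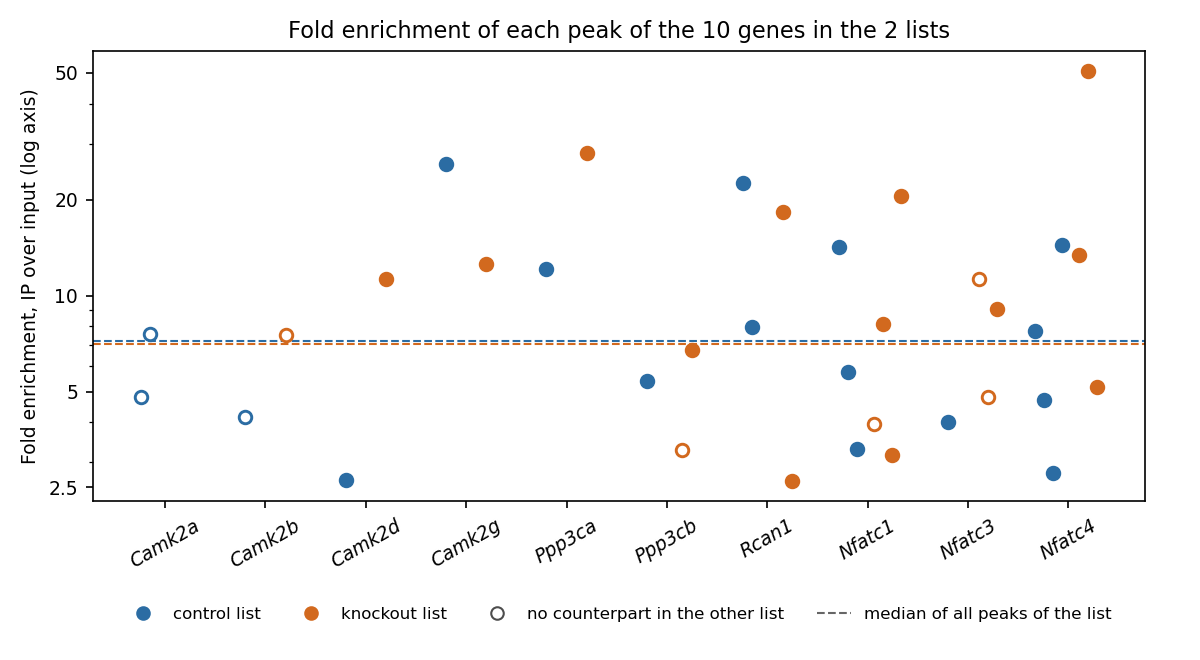
Fold enrichment of IP over input of every peak of the 10 genes (log axis), with control peaks in blue, knockout peaks in orange, open points for peaks without a counterpart and dashed lines at the median fold of each whole list (7.22 control, 7.03 knockout). The values run from 2.63 to 25.9 in the control list and from 2.62 to 50.6 in the knockout list, where the highest is a peak of Nfatc4.

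All 8 control peaks of Nfatc1, Nfatc3 and Nfatc4 were shared, next to 76.1% of all control peaks. Their overlapping knockout peaks were wider, but by only 30 bases for Nfatc3, the middle Nfatc1 peak and the 3′-most Nfatc4 peak. A joined knockout peak of Nfatc4 overlapped 2 of the control peaks. Over all pairs of peaks that overlapped only each other, the knockout peak was wider in 42.2%. Of the 8, 5 were shared when 50% of both peaks had to overlap, next to 61.5% of all control peaks. Their control peaks covered 1626 exonic bases and their knockout peaks 3308, and 1537 bases were common to both. The number of peaks went from 8 to 10, with 3 in the knockout list that had no control counterpart. All of these lay far 5′ of the shared ones. This does not extend to the NFAT genes outside the 10, described below. There, 3 of the 5 control peaks of Nfatc2 and the 1 control peak of Nfat5 lacked a counterpart.

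Nfatc1, known for its role in endocardium and heart valves, had 3 control peaks and 4 knockout peaks on the minus strand of chromosome 18. The strongest by p was the same in both lists, at 80650920 to 80651220 in the control (301 bases, fold 14.2, log10 q -13) and at 80650800 to 80652164 in the knockout (451 exonic bases, fold 8.17, log10 q -11.7). The knockout peak had a second block of 10 bases across a splice junction. The next peak 3′ covered 181 control bases (fold 5.75, log10 q -4.97) and 211 knockout bases (fold 3.17, log10 q -3.60). The 3′-most peak covered 121 bases in the control (fold 3.31, log10 q -2.37) and 451 bases in the knockout (fold 20.6, log10 q -5.51). The added knockout peak, 391 bases wide at 80740823 to 80741213, lay 88.7 kb 5′ of the others and had a fold of 3.96 and a log10 q of -5.57. Together, Nfatc1 peaks covered 603 control and 1504 knockout bases, the largest difference among the 10 genes after that of Camk2a, and 37.4% of all bases covered in either list were covered in both.

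Nfatc3, a calcineurin-responsive factor of heart muscle growth, shared a strong peak on the plus strand of chromosome 8. It covered 106854560 to 106854830 in the control list (fold 4.01, log10 q -11.9) and 106854560 to 106854860 in the knockout list (fold 9.07, log10 q -21.3). By p it stood above 56.2% of control and 73.7% of knockout peaks. The knockout list added 2 peaks of 91 bases each, 68.1 kb and 48.4 kb further 5′. The peak at 106786336 to 106786426 had a fold of 11.3 and a log10 q of -1.90, and 145 other knockout peaks had exactly its fold and p. The peak at 106806115 to 106806205 had a fold of 4.82 and a log10 q of -4.22.

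Nfatc4, another calcineurin-responsive factor linked to hypertrophy, had 4 control peaks and 3 knockout peaks on the plus strand of chromosome 14, all of them shared. In the control list none was strong, with a log10 q of -5.12, -5.38, -2.20 and -2.86 from 5′ to 3′. In the knockout list, the first and second had a log10 q of -13.7 and -12.9. The knockout peak at 56063868 to 56066115 (899 exonic bases, fold 50.6) overlapped the control peaks at 56063988 to 56064287 (300 bases, fold 4.72) and at 56064467 to 56064617 (151 bases, fold 2.77). This was the only case of a joined pair among the 10 genes, and 8.24% of all shared knockout peaks overlapped more than 1 control peak. None of the 14 shared control peaks overlapped more than 1 knockout peak, as 9.48% of all shared control peaks did. The fold of 50.6 stood at the 98.9th percentile of the knockout list, yet by p the peak was stronger than only 63% of it. The first knockout peak, at 56062369 to 56063629, had 3 blocks of 225, 61 and 15 bases (fold 13.4), where the control peak at 56062340 to 56062549 had 210 bases in 1 block (fold 7.75). The 3′-most peak was weak in both lists, at 56071310 to 56071400 in the control (fold 14.4) and 56071250 to 56071370 in the knockout (fold 5.16). Its control values were those of 134 other control peaks.

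**Figure D4:**
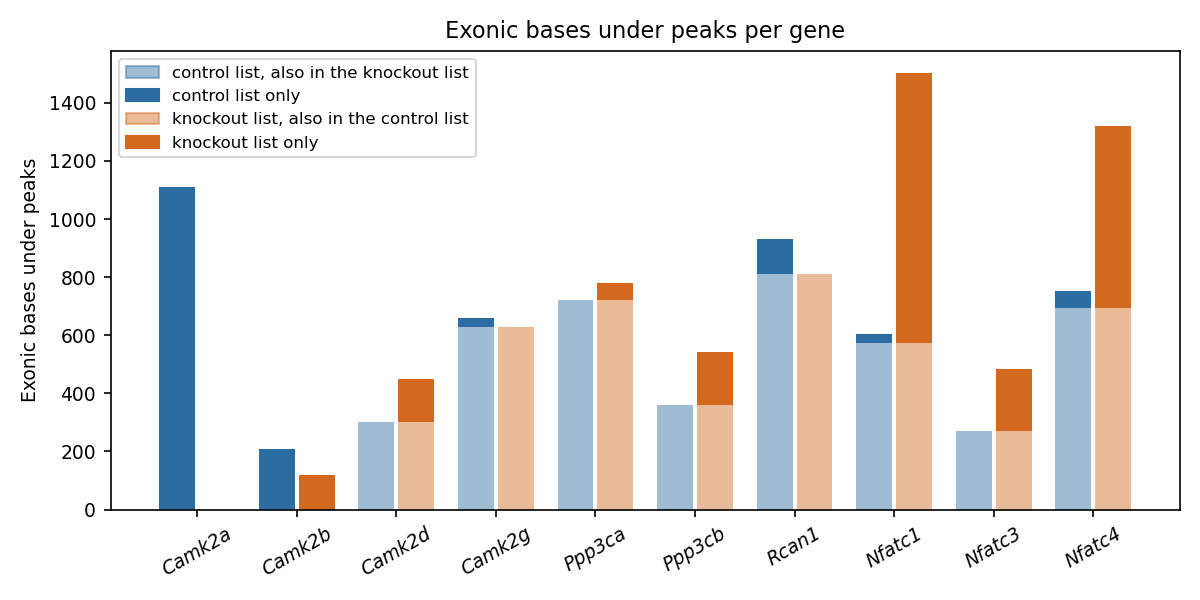
Exonic bases under peaks for each of the 10 genes, with a blue bar for the control list and an orange bar for the knockout list; the pale part is covered in both lists and the dark part in that list alone. Nfatc1 (603 and 1504 bases), Nfatc3 (271 and 483) and Nfatc4 (752 and 1321) have taller knockout bars, Rcan1 (930 and 810) and Camk2g (659 and 629) slightly lower ones, and Camk2a (1111 control bases) has none.

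Widths were compared across the 12 pairs of peaks of these genes that overlapped only each other. The knockout peak had more exonic bases in 8 pairs, fewer in 2 (Camk2g and the 3′ peak of Rcan1) and as many in 2 (Ppp3cb and the 5′ peak of Rcan1). Over 13228 such pairs of all genes, the knockout peak was wider in 42.2%, narrower in 43.8% and of equal width in 14%. The median difference, knockout minus control, was 30 bases over the 12 pairs and 0 bases over all pairs. The edges are coarse. In the 8 pairs of 1 block each, all 16 edges were equal (5 of them) or apart by a multiple of 30 bases within 1 base. A difference of 30 bases is thus a single step in these pairs. The step was not checked over the whole lists. Per gene, 6 of the 9 genes in both lists had more bases under knockout peaks and 3 (Camk2b, Camk2g and Rcan1) more under control peaks. Over 9456 genes these shares were 45.5% and 47.8%. The median share of covered bases that both lists held was 66.6% over the 9 genes and 64.3% over all genes in both lists.

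In genes that also had a shared peak there were 4 knockout-only peaks, those of Ppp3cb, Nfatc1 and Nfatc3, and all of them were 5′ of every shared peak of their gene. Among 3080 knockout-only peaks of this kind over all genes, 55.1% lay 5′ of every shared peak and 28% lay 3′ of them. Among 2907 control-only peaks of this kind, 33.6% lay 5′ and 44.6% lay 3′. A 5′ position was thus the more frequent one among knockout-only peaks of all genes. Peaks of 2 or more blocks were 1 of 17 in the control list (Rcan1) and 5 of 18 in the knockout list (Ppp3ca, Rcan1, Nfatc1 and 2 of Nfatc4), next to 21.2% and 23.3% of the whole lists.

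The wider pathway was followed in 43 other genes, of which 37 had a peak. Of these, 27 (73%) had peaks in both genotypes, 1 (2.70%) in the control alone and 9 (24.3%) in the knockout alone, next to 77.6%, 10.5% and 11.9% over all genes. The knockout-only share of these genes was 18.8% to 27% under the other thresholds tried, where it was 11.2% to 12.6% over all genes. The control-only share was 0% to 9.38% there, against 10.6% to 11.6% over all genes. All these thresholds filter the same peaks of 1 pair of libraries per genotype, so they are no independent check. No interval is given for these shares. Of the 9 genes with knockout peaks alone, only Ppp3r1 and Myoz1 had a strong one. Of the 60 control peaks of these genes, 15 (25%) had no counterpart, and of the 70 knockout peaks 25 (35.7%) had none, next to 23.9% and 24.5% of all peaks. Akap6 alone held 8 of these 15 control peaks. Marker genes of heart cell types differed in the same counts. Among the fibroblast markers Col1a1, Col1a2, Pdgfra and Dcn, 7 of 14 knockout peaks and 1 of 8 control peaks lacked a counterpart. Among 4 endothelial markers (Pecam1, Cdh5, Tek and Kdr) 4 of 9 knockout and 1 of 7 control peaks did, and among 4 smooth muscle and pericyte markers 4 of 17 and 2 of 16. Among the cardiomyocyte markers 0 of 14 knockout and 5 of 20 control peaks did. These 5 were all among the 17 strong control peaks of the cardiomyocyte markers, where 8.72% of all strong control peaks lacked a counterpart. Of the strong control peaks of the fibroblast (4), endothelial (4), and smooth muscle and pericyte (12) markers, 0 lacked one. Of the strong knockout peaks of these markers, in the same order, 3 of 8, 2 of 6 and 1 of 13 lacked one. Of the 13 strong knockout peaks of the cardiomyocyte markers 0 did, next to 4.04% of all strong knockout peaks. Of the immune markers Ptprc, Cd68 and Csf1r, Csf1r alone had peaks. The part of cell makeup in the counts above was not tested.

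**Figure D5:**
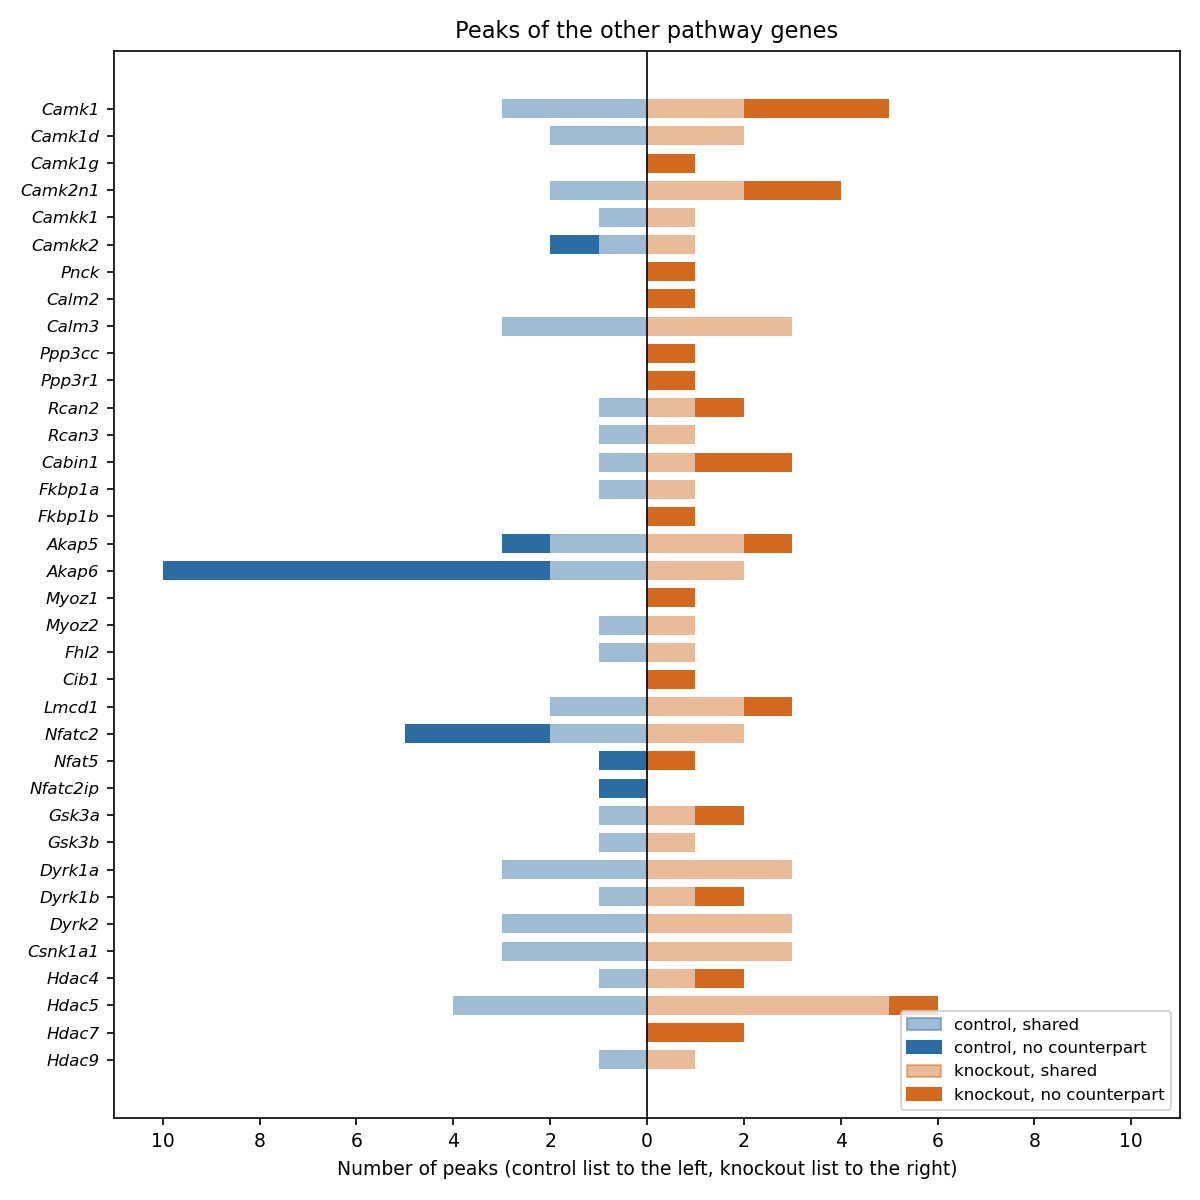
Number of peaks of 36 other pathway genes with a peak, to the left for the control list and to the right for the knockout list; the pale part of a bar is shared peaks and the dark part peaks without a counterpart. Akap6 (8 of 10) and Nfatc2 (3 of 5) hold most dark control peaks, while dark knockout peaks are spread over many genes at 1 to 3 each.

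The other calcineurin subunits were a group of only 3 genes. Of these, 2 had a peak, both in the knockout list only, next to 11.9% of all genes with a peak. Ppp3r1, which encodes the calcium-binding regulatory subunit, had a strong knockout-only peak on the plus strand of chromosome 11 at 17109323 to 17142883 (300 exonic bases, fold 4.28, log10 q -19.3). Ppp3cc, the gamma catalytic subunit gene, had a weak one (fold 7.97, log10 q -2.46). Ppp3r2 had no peak in either list. Of the calmodulin genes, Calm3 had shared peaks, and Calm2 had a knockout-only peak on chromosome 17 (fold 2.28, log10 q -7.29).

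Of the 14 genes for calcineurin regulators and anchors, 12 had a peak. Of these, 9 (75%) had peaks in both lists and 3 (25%) in the knockout list only, next to 77.6% and 11.9% of all genes with a peak. Myoz1, which encodes calsarcin 2, a Z-disc protein that binds calcineurin, had the strongest knockout-only peak of the pathway, on the minus strand of chromosome 14 at 20701101 to 20701604 (296 exonic bases, fold 7.08, log10 q -35). Cib1, a calcium-binding protein gene, had one with a fold of 19.7 (log10 q -8.64), and that of Fkbp1b, which encodes the calstabin of the ryanodine receptor, was weak (log10 q -1.90). Akap6, which encodes the nuclear envelope anchor mAKAP that binds calcineurin, had 10 control and 2 knockout peaks. Of its 8 control-only peaks 4 were strong, led on chromosome 12 by 53188852 to 53189332 (log10 q -25, fold 3.57) and 53187982 to 53188252 (log10 q -24.4, fold 4.44).

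Among the remaining NFAT genes, Nfatc2 had 5 control and 2 knockout peaks, and 3 strong control peaks lacked a counterpart. They lay on the minus strand of chromosome 2 at 168320757 to 168321206 (fold 6.42, log10 q -10.4), at 168321416 to 168321986 (fold 8.22, log10 q -11.7) and at 168413267 to 168413507 (fold 20.6, log10 q -14.6). The shared peak that started at 168318540 had 870 control and 181 knockout bases. Nfat5, the tonicity-responsive member, had a weak peak in each list without overlap, and Nfatc2ip had a weak control-only peak (log10 q -1.69). Akap6 and Nfatc2 held all 7 strong control peaks without counterpart among 34 strong control peaks of the pathway (20.6%, next to 8.72% of all). Ppp3r1 and Myoz1 held the 2 among 28 strong knockout peaks (7.14%, next to 4.04%).

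Of the kinases that send NFAT back to the cytoplasm, all 6 had peaks in both lists, next to 77.6% of all genes with a peak. Of their 12 control peaks 0 lacked a counterpart, and of their 14 knockout peaks 2 did, 1 each of Gsk3a and Dyrk1b, next to 23.9% and 24.5% of all peaks. Of the 10 CaM kinase and CaMKII inhibitor genes, 7 had a peak. Of these 7, 5 (71.4%) had peaks in both lists and 2 (28.6%) in the knockout list only, next to 77.6% and 11.9% of all genes with a peak. Camk1g (log10 q -3.39) and Pnck (-2.86) had weak peaks in the knockout list only. Of the 4 class IIa histone deacetylases, a group with CaMKII targets, Hdac4, Hdac5 and Hdac9 had peaks in both lists (75%, next to 77.6%). Of the 11 knockout peaks of this group 4 lacked a counterpart, and of its 6 control peaks 0 did, next to 24.5% and 23.9% of all peaks. Hdac7 had 2 knockout-only peaks on chromosome 15 (log10 q -8.03 and -9.33).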

How the data were processed

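Genotype and antibody labels set the groups of the MeRIP-seq libraries. Per the series' design text, the authors called peaks with exomePeak 2.16.0 at a q of 0.05, each IP against its input. Build GRCm39 and the tools HOMER 4.9.1, BWA 0.7.12 and fastp 0.19.11 stand in the submitters' processing notes, which give them no role. The deposited lists give each peak a p-value, log10 p and log10 q values, and a fold. The authors' log10 p and log10 q were treated as a score because some are minus infinity. Fold, the authors' linear ratio between IP and input, was used here within its list only. Repeated rows (2 control, 5 knockout, none of the 10 genes) were kept.

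Exonic blocks were compared in pandas 2.3.3, numpy 2.4.6 and scipy 1.17.1 under Python 3.11.15. Percentiles rank a peak within its own list. In a test on 19795 simulated peaks the overlap code found 100% of kept and 0% of moved ones. The 10 genes, the pathway list and the threshold of 1e-10 were chosen with earlier results of these data known. Every peak of the 10 genes was described. Pathway genes were named where they had peaks in 1 list only or a strong peak without counterpart; Calm3, Ppp3r2, Nfat5, Hdac4, Hdac5, Hdac9, Gsk3a and Dyrk1b were named after their values were seen. Intervals are exact (Clopper-Pearson), and peaks of a gene are not independent. Results for some single genes are left out.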

Additional observations from a re-analysis of the deposited data

How the results depend on the processing

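The counts were repeated with q at or under 0.01 and 0.001, a fold of at least 2, an overlap of 50% of the shorter peak or of both peaks, no strand, whole spans, equal numbers of peaks from each list (20111), strong peaks at 1e-05 and 1e-20, and peaks within 200 bases as shared, the last added after the data were seen. When 50% of both peaks had to overlap, 6 of 17 control peaks of the 10 genes lacked a counterpart in place of 3. Over all control peaks 38.5% did. Of the 9 strong knockout peaks, 1 lacked one in place of 0, next to 14.2% of all strong knockout peaks. With strong peaks at 1e-05, 2 of 12 strong control peaks lacked one in place of 1, next to 13% of all strong control peaks. Of 12 strong knockout peaks, 1 did in place of 0, next to 9.02% of all. The other repeated counts of the 10 genes' peaks stayed within 1.5 times those reported. In the pathway list, 1 gene had control peaks alone, and 3 did at q 0.001 but 0 at q 0.01 or with equal numbers; its counts of single-list peaks were not repeated. The genes with peaks in both lists numbered 9 of the 10, except at q 0.001, where they numbered 8 of the 9 with a peak. In the pathway list they numbered 23 of 32 at q 0.001 and 26 of 37 at a fold of at least 2. At q 0.01 and with equal numbers of peaks they numbered 27 of 35. No paired analysis was possible because each genotype had 1 pooled pair of libraries. The unknown depth limits every statement on a peak absent from 1 list.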
